A study of Mus musculus with 24 samples.

Results

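The 10 genes described here encode the colony stimulating factors Csf1 (M-CSF), Csf2 (GM-CSF) and Csf3 (G-CSF), their receptor chains Csf1r, Csf2ra, Csf2rb and Csf3r, the cytokines Lif (leukemia inhibitory factor) and Osm (oncostatin M), and the oncostatin M receptor chain Osmr. They were chosen by symbol, with earlier results of these data known, and all 10 were found among the 20673 genes counted in every library. The series measured messenger RNA by sequencing in 4 kinds of activated primary cells from C57BL/6J mice, wild-type (WT) or lacking miR-155 (miR-155 KO), with 3 libraries in each of 8 groups and 24 in all. B cells came from spleen by depletion of CD43+ cells and were activated with 25 µg/ml lipopolysaccharide (LPS) and 6.5 ng/ml interleukin 4. Dendritic cells were CD11c+ spleen cells of WT or KO mice that had carried a B16 melanoma producing Flt3 ligand, and received 100 ng/ml LPS with 20 ng/ml GM-CSF, the protein product of Csf2. Macrophages were peritoneal cells elicited by thioglycollate and given 100 ng/ml LPS. CD4 T cells (CD25-, CD44-) came from spleen and lymph node and were stimulated through CD3 and CD28 with antibody-coated beads. The sources used here give no age or sex of the mice and no duration of activation, and cell type, stimulus and medium cannot be told apart in any comparison between cell types.

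The series describes the 3 libraries of each group as sequencing replicates, with no statement on separate animals, so a p-value here measures only library-to-library spread and that spread may be technical. Gene counts ran from 7428821 to 14219823 per library. The summed marker genes of each labelled cell type were high in its own libraries and low elsewhere: 2870 to 3250 counts scaled to a common library size (CPM) against at most 41.9 for B cells, 1460 to 1560 against at most 34.3 for T cells, 11700 to 16000 against at most 598 for dendritic cells, and 25800 to 41000 against at most 305 for macrophages. The targeted microRNA gene was not analysed here, so the genotype rests on the labels. WT macrophage replicate 3 was the most distant of the 3 WT macrophage libraries over all genes (chi-square per gene 65.79 and 160.69, against 39.23 between the other 2). Among the WT dendritic cell libraries replicate 1 was the most distant over all genes (15.91 and 11.33, against 5.38), while replicate 3 held the most RNA of macrophage marker genes. Where leaving out one of these libraries moved a result much, the value without it is given.

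CSF1 acts through the receptor tyrosine kinase CSF1R and is the main survival factor of macrophages. GM-CSF binds the alpha chain CSF2RA, which signals with the beta chain CSF2RB that the receptors for interleukins 3 and 5 share. G-CSF acts through CSF3R and is known for the production and mobilization of neutrophils. LIF and oncostatin M belong to the interleukin 6 family and signal through the common chain gp130 (Il6st), joined by the LIF receptor or, for oncostatin M, by OSMR, which is known from fibroblasts, endothelium and other stromal cells. Many of these ligands are made on activation by LPS or through the T cell receptor, and their messages are known for AU-rich 3′ untranslated regions (UTRs) that shorten the life of the RNA. miR-155 is a microRNA induced on activation of these cell types, and it lowers messages whose 3′ UTR pairs with its seed.

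The mature microRNA missing in the KO and the seed match in the Csf1 message are shown, since the seed decides which messages miR-155 can pair with. Capitals mark the seed, bases 2 to 8, in the mature microRNA (RefSeq, GRCm38.p6, chr16:84714143-84714165, plus strand) and the matching bases in the 3′ UTR of Csf1 (GRCm38, chr3:107741220-107741245, minus strand, written 5′ to 3′ on the transcript strand).
mmu-miR-155-5p: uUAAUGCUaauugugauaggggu
Csf1 3′ UTR: gcccctgtgtGCATTAggaacccttc

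Sites were searched on the transcript strand of the longest 3′ UTR of each symbol in the GENCODE annotation of GRCm38, as the 8mer AGCATTAA, the 7mers AGCATTA and GCATTAA and the 6mer GCATTA, each site being counted once as its longest form. Of 19478 symbols with a 3′ UTR, 13.4% held an 8mer or 7mer. Among the members, Csf1r held 1 8mer, which starts 643 bases after its stop codon in a 3′ UTR of 1669 bases. Csf1 held only the 6mer shown, and the other 8 members held none of these letters in that UTR. Among 3′ UTRs within 10% of the length of that of Csf1r, 15.2% held an 8mer or 7mer.

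The AU-rich pentamer ATTTA, counted with overlaps on the transcript strand, was found in every ligand message: 9 times in Csf2, 7 in Lif, 6 in Csf3, 6 in Osm and 4 in Csf1. Of the receptor chains, Osmr held 4, as many as Csf1, and there were 3 in Csf1r and 0 in Csf2ra, Csf2rb and Csf3r. For its length of 317 bases the Csf2 UTR is dense in it, since 0.145% of the 692 3′ UTRs within 10% of that length held at least 9. The same share was 1.59% for Csf3, 3.41% for Osm, 37.3% for Lif and 44.6% for Csf1, and for the receptors 37.9% for Osmr and 46.9% for Csf1r. The longer motif TTATTTATT, which contains the pentamer, occurred 4 times in Csf2, 2 times in Lif and in no other member. It is held by 2.17% of UTRs like Csf2 in length and by 12.0% of those like Lif. These are matches of letters in a window, not measured sites.

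In WT cells 6 of the 10 members were highest in macrophages (Csf1, Csf3, Csf1r, Csf2ra, Csf3r and Osmr), 2 in dendritic cells (Csf2rb and Osm) and 2 in CD4 T cells (Csf2 and Lif). The cell type with the highest mean was the same in KO cells for all 10. For 8 of them the lowest library of that cell type lay above every library of the other 3 cell types in both genotypes. The exceptions were Csf2, near the limit of detection everywhere, and Csf2rb, whose WT dendritic cell and macrophage libraries overlapped. How many of all genes lie apart in this way is not given here, so the 8 is only a description. Levels were set against each other in a fit of all 24 libraries in which 9 members passed the count filter and Csf2 did not. Members called at an adjusted p under 0.05 (edgeR quasi-likelihood test, Benjamini-Hochberg over all genes) were 6 of 9 between B and dendritic cells, where 80.2% of all genes were called, and 9 of 9 between B cells and macrophages, where 82.4% were. They were 4 of 9 between B and CD4 T cells with 56.2% of all genes called, and 9 of 9 between dendritic cells and macrophages with 80.4%. The remaining pairs gave 7 of 9 between dendritic and CD4 T cells with 81.6% of all genes called, and 9 of 9 between macrophages and CD4 T cells with 83.8%. A member that passed the filter through a single cell type had to differ in these comparisons, and the counts are given as a description.

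**Figure D1:**
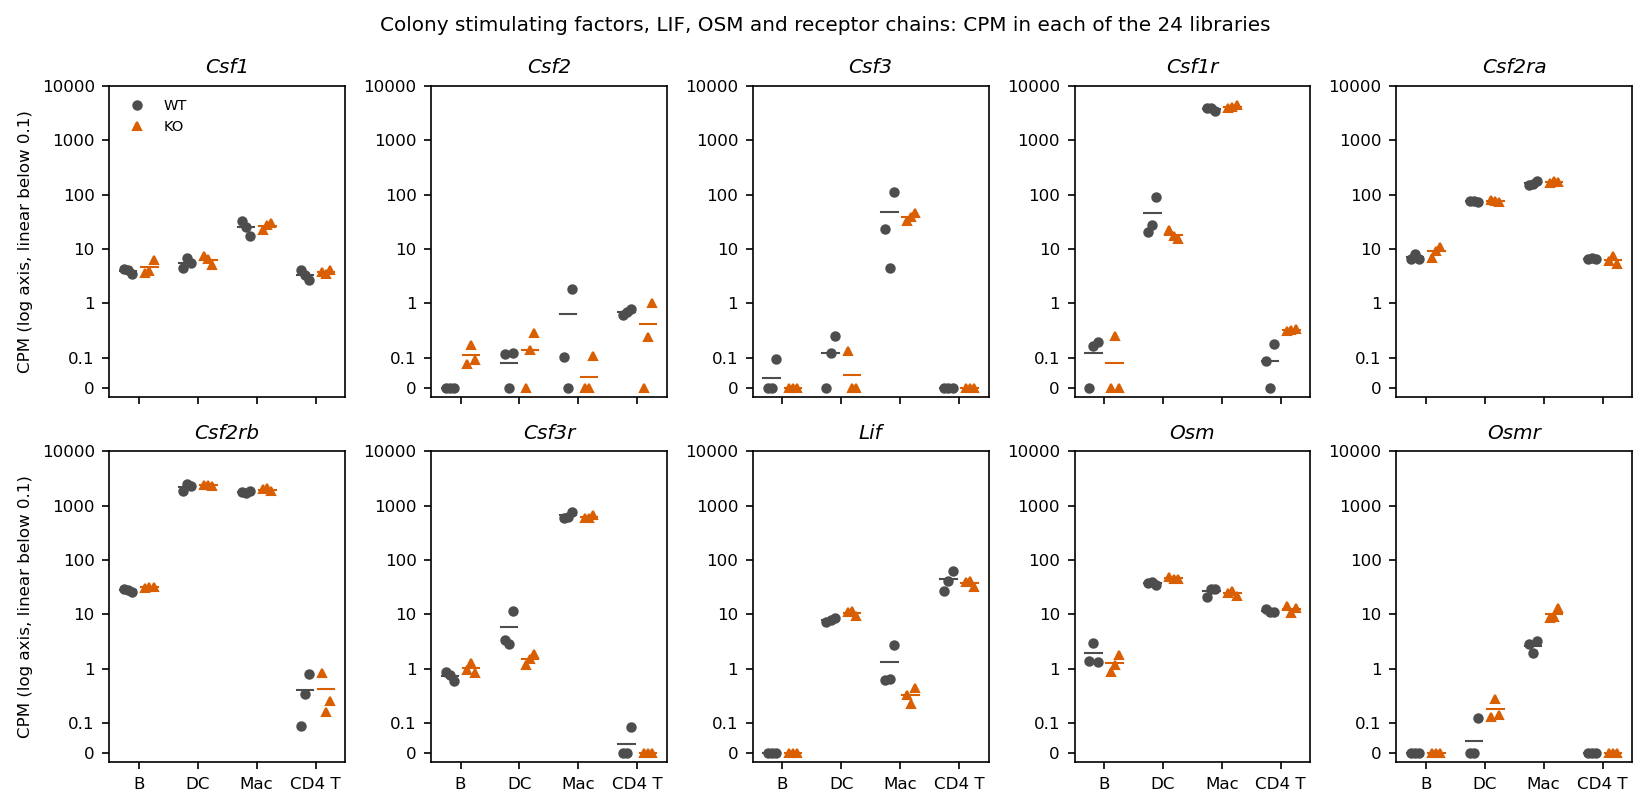
CPM of each member in each of the 24 libraries, with 1 panel per gene, cell types along the x axis (B, dendritic, macrophage, CD4 T), WT as grey circles, KO as orange triangles and a line at each group mean of 3 libraries; the y axis is logarithmic above 0.1 CPM and linear below. Cell types lie far apart for most members, as for Csf1r at 3450 to 4540 CPM in macrophages and at most 0.344 in lymphocytes, while WT and KO symbols mostly lie at like heights.

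Csf1, the ligand of CSF1R, was the one colony stimulating factor counted in all 24 libraries. Its WT level was 33.5, 25.5 and 17.2 CPM in macrophages, 4.50, 7.0 and 5.48 in dendritic cells, 4.23, 4.10 and 3.51 in B cells and 4.10, 3.31 and 2.66 in CD4 T cells. The macrophage mean was 4.49-fold that of dendritic cells (dendritic cells minus macrophages -2.16 on the log2 scale, adjusted p = 1.4e-08) and 6.44-fold and 7.57-fold those of B and T cells. Below macrophages, B cells did not differ beyond the spread from dendritic cells (adjusted p = 0.082) or from T cells (adjusted p = 0.50). Dendritic and T cells differed by 0.75 on the log2 scale (adjusted p = 0.015), a call lost without WT dendritic cell replicate 2 (0.57, adjusted p = 0.095) or WT T cell replicate 3 (0.61, adjusted p = 0.069).

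Csf3, encoding G-CSF, was counted almost solely in macrophages, and its WT libraries there lay far apart. The WT macrophage libraries held 23.4, 4.41 and 114 CPM, a mean of 47.2 ± 58.4 (SD, n = 3, as for each group below), and the KO libraries 33.0, 39.4 and 46.3. In the other cell types no library held more than 0.249 CPM. Over the 3 WT libraries, dendritic cells held 3 counts, B cells 1 and CD4 T cells 0. The WT macrophage mean was 383-fold that of dendritic cells, with a 95% interval from counting error alone of 133 to 1890, and without WT macrophage replicate 3 the ratio was 113-fold (39.3 to 556). It was at least 536-fold higher than in T cells, where a floor of 3 counts over the group was used, and at least 158-fold higher without that library. On the log2 scale dendritic cells minus macrophages was -8.46, and -6.66 without WT macrophage replicate 3.

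Csf2, encoding GM-CSF, was near the limit of detection in all cell types. WT CD4 T cells held 0.624, 0.696 and 0.797 CPM, or 24 counts over the group, and KO T cells 0, 0.244 and 1.03 CPM. The WT macrophage libraries held 0.104, 0 and 1.84 CPM, so that 18 of the 19 counts of that group came from replicate 3. WT dendritic cells had 2 counts over the group and B cells 0, which allows up to 0.0926 CPM. The T cell mean was thus at least 7.62-fold higher than that of B cells. The Csf2 and Il3 genes lie 15635 bases apart on chromosome 11.

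Among the receptor chains, Csf1r had the highest level of all members, also per length. WT macrophages held 3980, 4000 and 3450 CPM, or a mean level of 1300 CPM per kb of coding sequence, against 808 for Csf2rb in dendritic cells, 265 for Csf3r in macrophages and 141 for Csf2ra in macrophages. The Csf1r level in WT dendritic cells was 20.5, 28.2 and 89.3 CPM, with the third library apart. The macrophage mean was 82.8-fold the dendritic cell mean, or 156-fold without WT dendritic cell replicate 3 (dendritic cells minus macrophages -6.37 on the log2 scale, adjusted p = 6.1e-12, and -7.29 without that library). B and T cells held at most 0.344 CPM in any library of either genotype.

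Csf3r was likewise highest in macrophages and next in dendritic cells, at a lower level than Csf1r in both. Its WT libraries held 601, 618 and 779 CPM in macrophages, 3.32, 2.90 and 11.7 in dendritic cells, 0.885, 0.753 and 0.585 in B cells and 0, 0 and 0.0885 in CD4 T cells. The macrophage mean was 111-fold that of dendritic cells (-6.81 for dendritic cells minus macrophages on the log2 scale, and -7.74, or 214-fold, without WT dendritic cell replicate 3) and 899-fold that of B cells. G-CSF receptor is a defining feature of neutrophils, so neutrophil markers were read in the same libraries. In macrophages the sum of the 10 neutrophil markers was 2790 to 4160 CPM, and nearly all of it was Mmp8, with a mean of 3340 CPM in WT. Ly6g, Ngp, Cxcr2 and Retnlg were at 0 in all 6 macrophage libraries, and S100a9 was at 0.104 CPM in 1 and at 0 in the other 5, while S100a8 was at 43.7 to 69.3 CPM.

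The GM-CSF receptor chains were shared by the myeloid cells, in different proportion. The alpha chain Csf2ra was at 154, 155 and 182 CPM in WT macrophages and at 76.4, 76.9 and 74.9 in WT dendritic cells, a 2.15-fold difference of the means (adjusted p = 1.5e-09). It was also present in lymphocytes, at 6.69, 8.19 and 6.63 CPM in WT B cells and 6.59, 6.79 and 6.55 in WT T cells, which did not differ beyond the spread (adjusted p = 0.54). The beta chain Csf2rb was at 1830, 2540 and 2270 CPM in WT dendritic cells and 1790, 1710 and 1830 in WT macrophages, and these groups overlapped. Their log2 difference of 0.31 was called (adjusted p = 0.044), but not once any of 7 of 12 libraries was left out, with values of 0.20 to 0.33. Those libraries are all 6 dendritic cell libraries except WT replicate 1 and WT macrophage replicates 1 and 2. With a replicate block within each cell type it was 0.30 (adjusted p = 0.057). WT B cells held 29.3, 27.9 and 25.5 CPM of Csf2rb and WT T cells 0.0891, 0.348 and 0.797.

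Counts of Csf2rb carry an added uncertainty. The neighbouring gene Csf2rb2, which encodes the mouse-specific beta chain of the interleukin 3 receptor, lies 20030 bases away on chromosome 15 and shares 26.0% of the 50-base windows of the Csf2rb coding sequence exactly. The sources used here do not say how the counting assigned reads from those stretches. Csf2rb2 was at 1030 ± 133 CPM in WT dendritic cells and 1010 ± 83.9 in WT macrophages.

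Lif was the member of the interleukin 6 family with the sharpest split between lymphocytes. WT CD4 T cells held 27.4, 41.8 and 63.0 CPM, WT dendritic cells 7.11, 7.85 and 8.47, WT macrophages 0.623, 0.656 and 2.75, and B cells 0 in all 6 libraries of both genotypes. The T cell mean was 5.64-fold that of dendritic cells (dendritic minus T cells -2.50 on the log2 scale, adjusted p = 5.1e-07), 32.8-fold that of macrophages and at least 476-fold higher than that of B cells. All 6 WT pairs of cell types differed in Lif. The highest macrophage library was again WT replicate 3, without which the T cell mean was 68.9-fold that of macrophages and the log2 difference of dendritic cells minus macrophages was 3.60 in place of 2.54.

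Osm was the sole ligand of these called different between every pair of WT cell types apart from Lif, and the span of its levels was smaller. WT dendritic cells held 38.0, 39.8 and 34.5 CPM, macrophages 21.3, 29.0 and 29.7, CD4 T cells 12.5, 11.1 and 11 and B cells 1.38, 3.01 and 1.36. The step from macrophages to dendritic cells was 1.40-fold (log2 difference 0.49, adjusted p = 0.0062), and dendritic cells exceeded B cells 19.5-fold. Osm and Lif are neighbours, 16530 bases apart on chromosome 11, yet their orders over the cell types differ, with dendritic cells at the top for Osm and T cells for Lif.

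Osmr, the receptor chain that joins gp130 to bind oncostatin M, was counted in macrophages and hardly elsewhere. WT macrophages held 2.80, 1.97 and 3.26 CPM, and no dendritic cell library held more than 0.274. B and CD4 T cells had 0 counts in all 12 libraries, which allows at most 0.0926 CPM in any of those groups, with 3 counts over a group as the limit. The WT macrophage mean was at least 28.9-fold higher than that of WT B cells. Per length, Osmr was the lowest of the members that passed the filter in macrophages.

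For each member that reached 5 CPM in some group, the 3 genes with the most similar profile over the 24 libraries were found by Pearson correlation of log2 CPM, and those reported here are named. These libraries share their 8 groups, so the values mostly reflect cell type and are given as a description. Csf1r ran closest to Dab2, Cd14 and F10 (each r = 0.996) and Csf3r to Fth1 (0.996), Slpi and Tlr2 (0.995 each). Csf3 ran closest to Trem3 (0.994), Fst and Pcdh7, and Csf1 to Sel1l3 (0.981), Hyal1 and Mdga1. Csf2ra was nearest to Tlr13, Hgf and Met (each 0.994) and Csf2rb to Tns3 (0.994) and Skap2. Lif had the least similar neighbours, Lrig1 (0.979), Gfod1 and Ddx43. Osm was nearest to Sat1 (0.984), Anxa2 and Hpcal1. Osmr was nearest to Amotl2 (0.991), Slc16a9 and the laminin gene Lama4 (0.989 each).

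The knockout comparison asked whether loss of miR-155 changed these genes within a cell type. Of 40 combinations of member and cell type, 24 had enough counts to be tested, and 2 were called: Osmr was higher in KO macrophages and Osm was higher in KO dendritic cells. No member was called lower in any cell type. In B cells 0 of 5 tested members were called against 3.2% of all genes, and in dendritic cells 1 of 7 against 21.6%. In macrophages 1 of 8 was called against 0.885%, and in CD4 T cells 0 of 4 against 2.15%. At an unadjusted p under 0.05 in edgeR, 1 of the 5 in B cells passed (Csf2rb), beside 1670 of all 10151 genes. In dendritic cells 3 of the 7 did (Csf3r, Lif and Osm), beside 3779 of 10536. In macrophages 1 of the 8 did (Osmr), beside 1909 of 10730, and in T cells 0 of the 4, beside 1880 of 10396. DESeq2 called 0 members in B and T cells, Csf3r in place of Osm in dendritic cells, and Osmr in macrophages. It called 544 of all genes in macrophages, and its totals for the other cell types are not set beside these counts. The median log2 difference over the tested members was 0.21 in B cells and 0.11 in dendritic cells, with 0.09 for macrophages and 0.03 for CD4 T cells, and that over all genes tested lay between -0.02 and 0.00. Csf1r, the member with the 8mer, was not called in either cell type where it was tested, at 0.15 in macrophages (SE 0.14, adjusted p = 0.63) and -1.32 in dendritic cells (SE 0.66, adjusted p = 0.22).

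**Figure D2:**
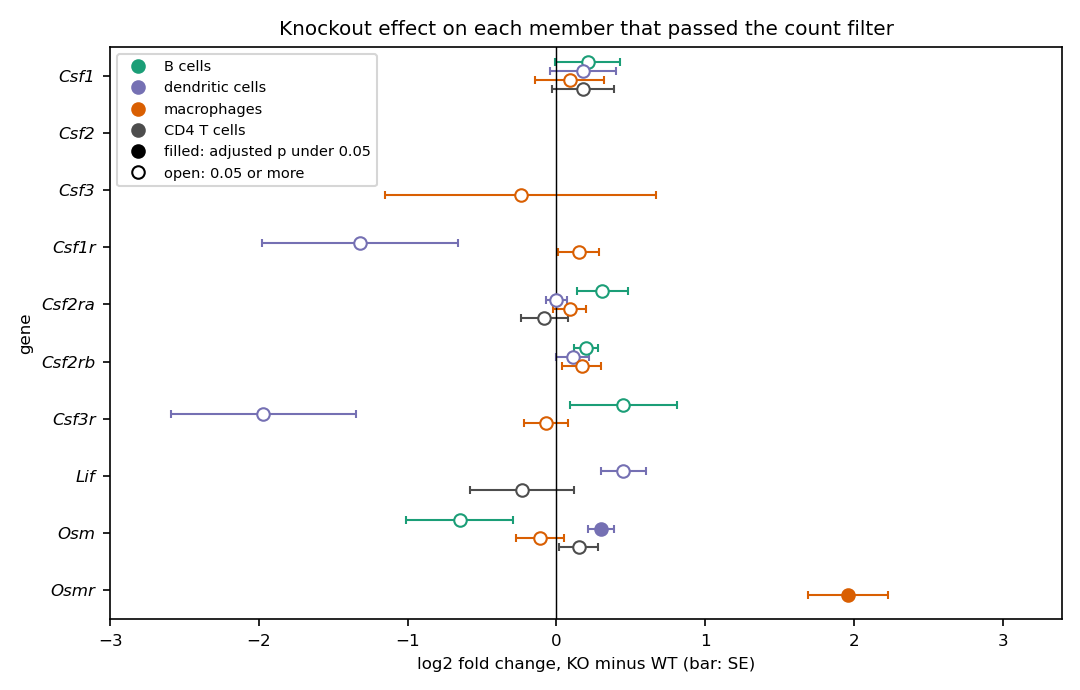
Log2 fold change of KO minus WT (x axis) with its standard error for each member (y axis) in the cell types where it passed the count filter; colours mark cell types and filled circles an adjusted p under 0.05. The filled points are Osmr in macrophages at 1.96 and Osm in dendritic cells at 0.30, while Csf3r in dendritic cells, at -1.97, is open.

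Osmr in macrophages had the largest called change. The KO libraries held 8.69, 8.91 and 13.3 CPM and the WT libraries 2.80, 1.97 and 3.26, so the lowest KO library was above the highest WT library. The share of all genes without overlap between genotypes is not given here, so such a gap is only a description. The means of 10.3 ± 2.59 and 2.68 ± 0.656 CPM gave a log2 fold change of 1.96 (SE 0.27, adjusted p = 0.041), or a 3.84-fold ratio of the means. The counts behind it were 280 in KO and 80 in WT. Without any 1 of the 3 KO libraries or WT replicate 1 the size stayed between 1.73 and 2.07 and the call was lost (adjusted p 0.17 to 0.20). In those same 4 fits at most 1 gene of all was called in macrophages, while 2746 were called without WT replicate 3, where Osmr was at 2.14 (adjusted p = 0.0041). Replicate numbers are not stated to pair samples. In macrophages KO and WT libraries of the same number had positive correlations of their deviations (0.122 to 0.313), and pairing was assumed there. With the replicate number as a block 265 genes were called in place of 95, Osmr among them at 1.96 (adjusted p = 0.014).

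Summed stromal marker RNA was also higher on average in KO macrophages. The sum of 8 stromal and mesothelial markers was 452, 359 and 822 CPM in KO macrophages and 267, 162 and 402 in WT, a 1.97-fold ratio of the means. It was highest in the replicates 3 of each genotype, as Osmr was. Unlike Osmr, the sum overlapped between genotypes, with WT replicate 3 above KO replicate 2. KO replicate 2 also had a lower sum than KO replicate 1 but not less Osmr (8.91 against 8.69 CPM). The sum came from Col1a1, Col1a2, Col3a1 and Dcn, while the mesothelial markers Msln and Upk3b were at or below 0.51 CPM in every macrophage library. Of the 5 markers that passed the filter edgeR called 0. At an unadjusted p under 0.05 there were 3, beside 1909 of all 10730 genes tested. DESeq2 called 1, Col3a1, and 544 genes in all. In edgeR Col3a1 was at 1.43 (SE 0.48, adjusted p = 0.19) and Col1a1 at 1.16 (SE 0.49, adjusted p = 0.28). Col1a2 was at 0.82 (SE 0.34, adjusted p = 0.27) and Pdgfra at 0.76 (SE 0.36, adjusted p = 0.34). Dcn was at 0.06 (SE 0.30, adjusted p = 0.94). It held 37.3, 32 and 57.5 CPM in KO and 34.5, 31.3 and 57.2 in WT. Expressed per 100 CPM of the stromal sum, Osmr was 1.92, 2.48 and 1.62 in KO and 1.05, 1.22 and 0.812 in WT, and the genotypes did not overlap on that scale either. Fewer or more cells of a type and less or more RNA per cell cannot be told apart in these bulk libraries, and the part of stromal cells in the Osmr result was not tested.

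**Figure D3:**
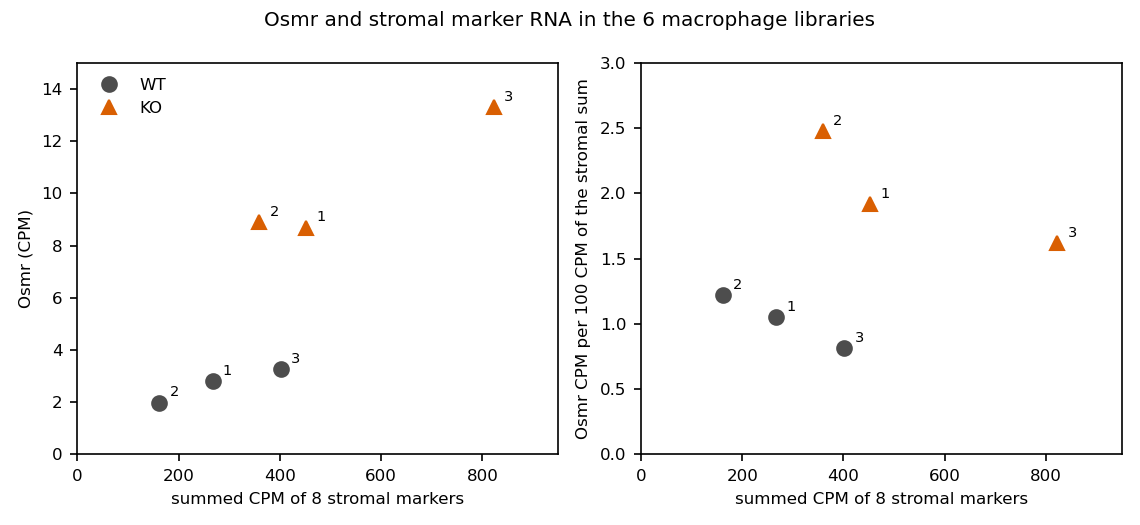
Osmr (CPM, left) and Osmr per 100 CPM of the stromal marker sum (right) against the summed CPM of 8 stromal markers on the x axis, in the 6 macrophage libraries; WT are grey circles, KO orange triangles, and numbers give the replicate. The KO libraries lie above the WT libraries in both plots, at 8.69 to 13.3 against 1.97 to 3.26 CPM on the left.

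Osm, one of the ligands of the chain encoded by Osmr, was called in dendritic cells. The KO libraries held 49.0, 44.9 and 44.7 CPM and the WT libraries 38.0, 39.8 and 34.5. The means of 46.2 ± 2.40 and 37.5 ± 2.71 CPM differed by 0.30 on the log2 scale (SE 0.09, adjusted p = 0.039). The call was lost with DESeq2 (adjusted p = 0.10), in the fit of all 24 libraries (adjusted p = 0.18), and without any KO library or without WT replicate 3 (0.25 to 0.32, adjusted p 0.092 to 0.14). In the other cell types Osm was not called, with 0.15 in T cells, -0.11 in macrophages and -0.65 in B cells (SE 0.36, adjusted p = 0.41), where it had 44 counts in KO and 64 in WT.

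Lif and Csf3r had adjusted p-values just above the threshold in dendritic cells and were not called by edgeR. Lif was at 11.3, 11.5 and 9.23 CPM in KO and 7.11, 7.85 and 8.47 in WT dendritic cells, a difference of 0.45 (SE 0.15, adjusted p = 0.061). Csf3r was at 1.19, 1.51 and 1.85 CPM in KO and 3.32, 2.90 and 11.7 in WT, a difference of -1.97 (SE 0.62, adjusted p = 0.054) from 33 counts in KO and 146 in WT. For Csf3r the setting decided the call: it was called with DESeq2 (-1.98, adjusted p = 0.0015), in the fit of all 24 libraries (-1.96, adjusted p = 0.0070) and without WT replicate 2 (-2.30, adjusted p = 0.024). Without WT replicate 3, the highest library, the difference was -1.04 (adjusted p = 0.055).

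Csf1r showed the same high library in dendritic cells. KO libraries held 22.2, 17.5 and 15.2 CPM and WT libraries 20.5, 28.2 and 89.3, with overlap, and the difference of -1.32 was -0.41 without WT replicate 3 (adjusted p = 0.18). In the fit of all 24 libraries Csf1r was called at -1.32 (adjusted p = 0.014). Summed macrophage marker RNA was also lower in KO dendritic cells. The sum of 10 macrophage markers was 120, 104 and 113 CPM in KO and 145, 194 and 305 in WT dendritic cells, again highest in WT replicate 3. Apart from that library, KO replicate 1 had the highest KO sum but the lowest Csf3r (1.19 CPM). WT replicate 2 had a higher sum than WT replicate 1 but less Csf3r (2.90 against 3.32 CPM). KO replicate 1 held more Csf1r than WT replicate 1 at a lower sum. C1qa (-1.13, adjusted p = 0.023), C1qb, C1qc, Fcgr1 and Lyz2 were called lower in KO dendritic cells, 5 of the 9 macrophage markers tested there. Of these 5 only Lyz2 was highest in WT replicate 3 (104 CPM). C1qa, C1qb and C1qc were highest in WT replicate 2 and Fcgr1 in WT replicate 1. Cd68 (-1.16, adjusted p = 0.069), Adgre1 (-0.49, adjusted p = 0.40), Timd4 (-0.10, adjusted p = 0.64) and Mertk (-0.09, adjusted p = 0.93) were not called by edgeR. The sum of the 10 neutrophil markers, mostly Mmp8, was 2.65, 1.92 and 1.42 CPM in KO and 1.19, 3.14 and 9.09 in WT, with Ly6g, Cxcr2 and Retnlg at 0 in all 6 libraries. The part of macrophages among the CD11c+ cells in the Csf1r and Csf3r values was not tested.

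**Figure D4:**
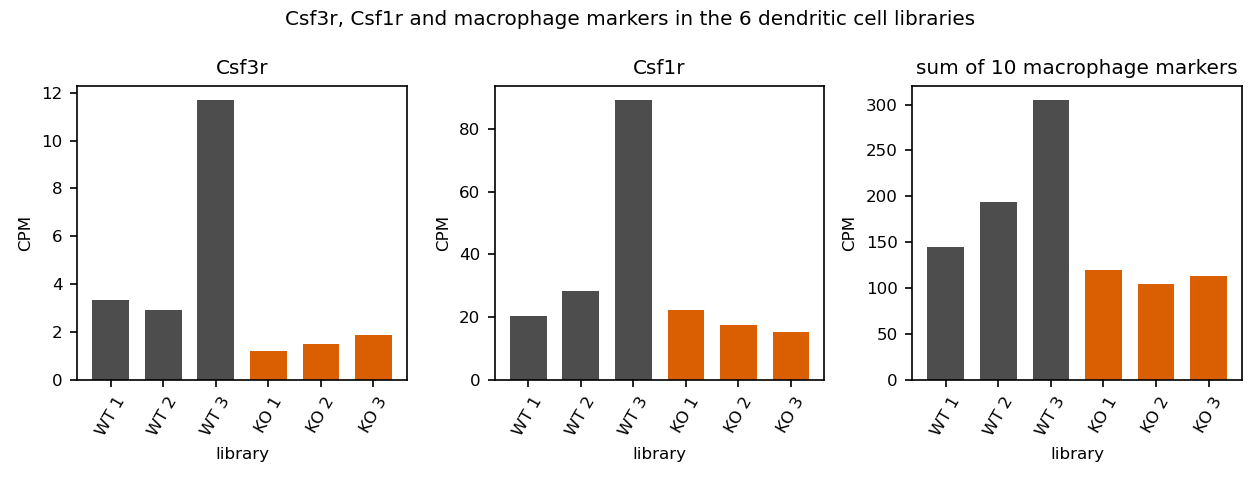
Csf3r (left), Csf1r (middle) and the sum of 10 macrophage markers (right) as bars of CPM on the y axis for each of the 6 dendritic cell libraries on the x axis, WT in grey and KO in orange. WT replicate 3 is the highest bar in all 3 plots, at 11.7, 89.3 and 305 CPM.

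In macrophages WT replicate 3 was the highest library for Csf3, Csf2 and Lif. The Csf3 difference was -0.24 (SE 0.91, adjusted p = 0.91), and without WT replicate 3 it was 1.56 with the KO higher (adjusted p = 0.15). With the replicate number as a block it was 0.57 (adjusted p = 0.73). Lif had 9 counts in KO and 40 in WT macrophages and Csf2 1 and 19, too few to be tested, and 27 and 18 of the WT counts came from replicate 3. The other 2 WT libraries, at 0.623 and 0.656 CPM of Lif, also lay above the KO libraries, at 0.33, 0.223 and 0.439. Il6 and Socs1, which are not members and were picked here after their values were seen, had the same high library. Il6 was at 22.6, 5.53 and 120 CPM in WT and 18.5, 17.8 and 28.6 in KO macrophages, and Socs1 at 64.6, 24.8 and 140 in WT. The summed macrophage markers were at 36500, 41000 and 25800 CPM in the WT libraries, and most of the sum was Lyz2 (22800, 25700 and 14700). Cd68, C1qa, C1qb and C1qc had the same order of WT libraries as the sum. Adgre1 had the reverse order (6510, 4730 and 6680 CPM), and Mertk, Fcgr1, Cd163 and Timd4 did not have the order of the sum.

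**Figure D5:**
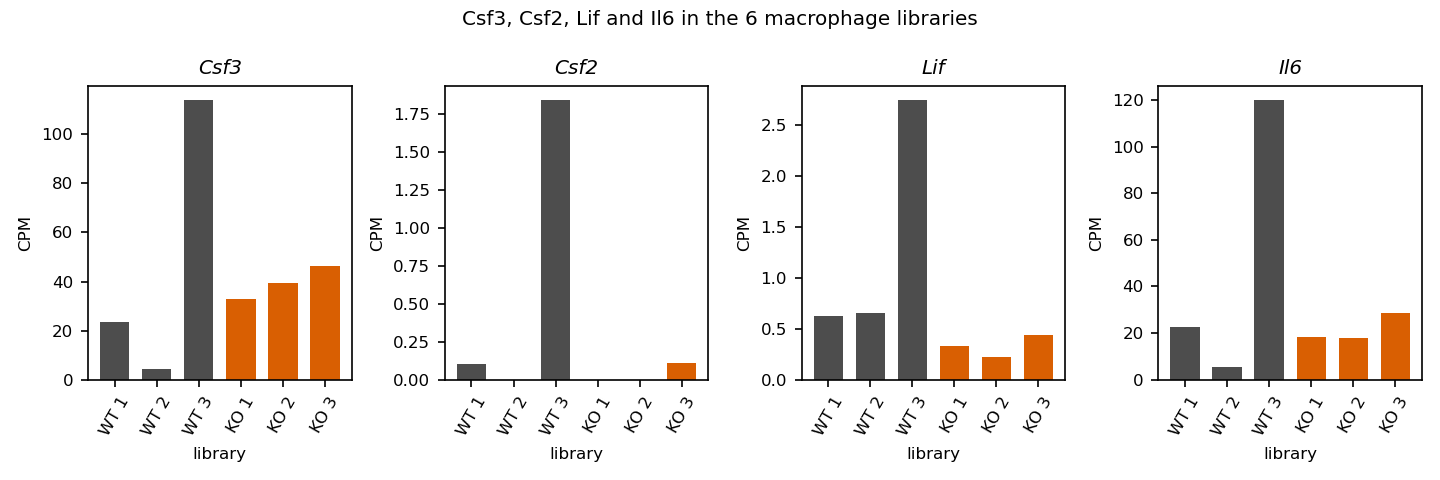
CPM (y axis, a separate scale in each plot) of Csf3, Csf2, Lif and Il6 in each of the 6 macrophage libraries on the x axis, WT in grey and KO in orange. WT replicate 3 is the highest in all 4 plots, at 114, 1.84, 2.75 and 120 CPM, and WT replicate 2 the lowest for Csf3 and Il6, at 4.41 and 5.53 CPM.

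Of the remaining combinations none was called. Csf2rb was at 31.2, 31.3 and 32.4 CPM in KO B cells and 29.3, 27.9 and 25.5 in WT B cells, a difference of 0.20 (SE 0.08, unadjusted p = 0.028, adjusted p = 0.23 in edgeR's test). In macrophages it was at 1990, 2080 and 1840 CPM in KO and 1790, 1710 and 1830 in WT, a difference of 0.17 (SE 0.13, adjusted p = 0.54). Csf2ra in dendritic cells was at 76.1 CPM on average in both genotypes (difference 0.00, SE 0.07), the smallest difference of all. Csf1 lay between 0.09 and 0.21 in the 4 cell types, with standard errors of 0.21 to 0.23. Lif in CD4 T cells was at 39.3, 41.9 and 31.9 CPM in KO and 27.4, 41.8 and 63.0 in WT, and its difference of -0.23 (SE 0.35) was 0.12 without WT replicate 3. The 16 combinations left untested had at most 40 counts in a group.

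Whether the KO effect of a member differed between cell types was tested in the fit of all 24 libraries. Over the 4 cell types together 0 of 7 members with at least 2 testable cell types were called, where 12.6% of all genes were. The lowest values were those of Csf3r (adjusted p = 0.075, unadjusted 0.012), Csf1r (0.14, unadjusted 0.031), Osm (0.18, unadjusted 0.050) and Lif (0.22, unadjusted 0.068). Csf3r passed without WT dendritic cell replicate 1 or 2 (adjusted p = 0.030 and 0.017), without WT macrophage replicate 3 (0.048), and without WT replicates 3 of both dendritic cells and macrophages (0.015). It also passed with a replicate block within each cell type (adjusted p = 0.0048), though pairing is stated for no cell type and was assumed in macrophages only. Csf1r passed without WT dendritic cell replicate 1 (0.018). Of 26 tests of a member between 2 cell types 1 was called, Csf3r in dendritic cells against macrophages. Among all genes the share called was 9.27% for dendritic cells against macrophages, 5.63% for B against dendritic cells, 2.67% for B cells against macrophages, 0.0571% for B against CD4 T cells, 6.1% for dendritic against CD4 T cells and 3.63% for macrophages against CD4 T cells.

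The Csf3r effect was -1.97 in dendritic cells and -0.07 in macrophages (599, 606 and 675 CPM in KO, 601, 618 and 779 in WT), and in the joint fit the effects differed by -1.88 (SE 0.52, adjusted p = 0.029). Without WT dendritic cell replicate 3 the difference was -0.95 (adjusted p = 0.070), and with WT macrophage replicate 3 left out as well it was -1.09 (adjusted p = 0.0087). The call was also lost without any 1 KO dendritic cell library or WT macrophage replicate 1 (adjusted p 0.052 to 0.091), and with no count filter (adjusted p = 0.054). With the replicate block it was -1.83 (adjusted p = 0.0018). Csf1r differed by -1.45 (SE 0.47, adjusted p = 0.059) in the same comparison and by -0.54 without WT dendritic cell replicate 3 (adjusted p = 0.23), while it passed without WT dendritic cell replicate 1 or 2 (adjusted p = 0.0061 and 0.025).

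The other genes of these pathways were described through 2 lists. The related cytokines and receptors (26 genes) include Il6st, the gp130 chain that LIF and oncostatin M receptors share, and Il6ra, the interleukin 6 receptor. Il6ra rose in KO B cells from 7.78 ± 1.96 to 14.0 ± 1.49 CPM (0.87, SE 0.16, adjusted p = 0.0081) and in KO dendritic cells from 6.49 ± 1.74 to 14.3 ± 0.723 (1.14, SE 0.19, adjusted p = 0.0020). Il6st rose in KO dendritic cells from 130 ± 18 to 177 ± 16.8 CPM (0.44, SE 0.11, adjusted p = 0.015). Ebi3, a subunit of interleukin 27, rose in KO B cells (0.47, SE 0.08, adjusted p = 0.0046) and fell in KO dendritic cells from 31.7 ± 5.49 to 15.3 ± 1.12 CPM (-1.05, SE 0.14, adjusted p = 0.00055). These were all the edgeR calls in this list: 2 higher of 14 tested in B cells (3.2% of all genes called), 2 higher and 1 lower of 13 in dendritic cells (21.6% of all genes), 0 of 13 for macrophages (0.885%) and 0 of 10 for CD4 T cells (2.15%). The share in dendritic cells was near that of all genes. At an unadjusted p under 0.05 there were 2 in macrophages and 0 in T cells, beside 1909 of 10730 and 1880 of 10396 genes. DESeq2 called 0 in both, beside 544 and 207 of all genes. The list's median log2 differences were 0.04, 0.01, 0.21 and 0.07 in that order, beside medians of -0.02 to 0.00 over all genes.

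The shared signalling and induced genes (32 genes) cover the JAK and STAT proteins, their inhibitors and typical induced genes. In B cells, where 3.2% of all genes were called, 4 of 28 tested genes rose: Cebpb (0.95, adjusted p = 0.033) and Spi1 (0.57, adjusted p = 0.00015), both factors of myeloid genes, Myc (0.24) and Inpp5d (0.21, adjusted p = 0.030), the phosphatase SHIP1 and a known target of miR-155. In dendritic cells, where 21.6% of all genes were called, 6 of 30 rose and 3 fell, with Bcl2l1, encoding the survival protein BCL-XL, at -0.91 (adjusted p = 0.00019), Spi1 at 0.69 (adjusted p = 0.00013), Mcl1 at 0.40 and Bcl3 at 0.40. Inpp5d, which the rule for named genes did not select there, fell in KO dendritic cells from 202 to 166 CPM (-0.29, SE 0.08, adjusted p = 0.032). In CD4 T cells 2 of 27 rose, against 2.15% of all genes called: Pim2 (0.36, adjusted p = 0.029), a kinase induced by STAT5, and Inpp5d (0.29, adjusted p = 0.012). In macrophages edgeR called 0 of 31. There 9 had an unadjusted p under 0.05, beside 1909 of all 10730 genes, and DESeq2 called 2, beside 544 of all genes. The median log2 differences were 0.00 in B cells, 0.01 in dendritic cells, 0.06 in T cells and 0.10 in macrophages.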

How the data were processed

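Messenger RNA was measured in 24 libraries, 3 for each of 4 cell types and 2 genotypes. The authors deposited raw read counts over the coding sequence of each gene symbol. Cutadapt, STAR and mm9 are named, per the submitters' processing notes; the tool that counted and its strand setting: not given in the sources used here. Reads in no feature (51.4 to 61.1% of a library's total) and other lines without a gene were left out. Libraries were grouped by title, and every pair within a group differed by more than counting noise (chi-square per gene 2.08 to 160.69, 24 pairs).

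KO and WT were compared per cell type with edgeR 4.0.16 (R 4.3.3; TMM, filterByExpr, robust quasi-likelihood test, two-sided), Benjamini-Hochberg adjusted over all genes tested, at 0.05. Differences between cell types used a fit of 8 group means. SE is the absolute log2 fold change over the square root of F. CPM use TMM-scaled library sizes. The scripts were tested on simulated data. Floors and intervals cover counting error only, with 3 counts over a group as the floor and 95% intervals.

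Alternatives were DESeq2 1.42.0, RLE scaling, no filter, 1 CPM in 3 libraries, a replicate block, the fit of 24 libraries and leaving out each library. Replicate numbers are not stated to pair samples. KO and WT macrophage libraries of the same number deviated together (correlation 0.122 to 0.313, against -0.265 to 0.078 for unlike numbers), and pairing was assumed there. Lengths and UTRs came from GENCODE M21 (GRCm38), not the files' build. Genes named besides the members were, per list and cell type, up to 4 called genes with the largest change, and the 3 genes most correlated with a member. Members and lists were chosen with earlier results of these data known. A gene that the rule for similar profiles selects for Csf2rb is not reported here.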

Additional observations from a re-analysis of the deposited data

Results flagged for a closer look

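The KO effect on Csf3r, the G-CSF receptor, differed between dendritic cells and macrophages in the test of the difference itself (log2 difference -1.88, SE 0.52, adjusted p = 0.029, edgeR fit of 24 libraries). That fit takes 1 spread per gene over all cell types. The dendritic cell libraries held 1.19 to 1.85 CPM in KO and 2.90 to 11.7 in WT. The macrophage libraries held 599 to 675 CPM in KO and 601 to 779 in WT. Over all settings in which that test was run the difference kept its sign, between -2.21 and -0.95, but the call was lost without WT dendritic cell replicate 3 (-0.95, adjusted p = 0.070), without any 1 KO dendritic cell library or WT macrophage replicate 1, and with no count filter (adjusted p 0.052 to 0.091 over all of these). The summed macrophage markers in dendritic cells were also lower in KO (104 to 120 CPM) than in WT (145 to 305 CPM), and their part in the result was not tested.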

How the results depend on the processing

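Of 285 alternative values for the 24 member tests of KO against WT, 258 kept direction and side of the threshold, 11 lost a call (all for Osm in dendritic cells or Osmr in macrophages), 5 gained one (Csf3r or Csf1r in dendritic cells) and 11 changed sign, none of them past the threshold on either side. For the numbers of genes called, the cause of each change below was not tested. In B cells 325 became 501 with no filter, 1260 with the replicate block, 81 in the fit of 24 libraries and 141 to 441 with a library left out. In dendritic cells 2279 became 1176 to 2870 with a library left out. In macrophages 95 became 544 with DESeq2, 265 with the block, 1755 in the fit of 24 libraries and 0 to 2746 with a library left out. In CD4 T cells 223 became 478 with no filter, 63 in the fit of 24 libraries and 32 to 598 with a library left out. For the KO effect between cell types, leaving a library out gave 1121 to 3619 genes over all 4 (main 1548), 2 to 10 for B against T cells, 432 to 821 for B against dendritic cells, 149 to 2148 for B cells against macrophages, 457 to 799 for dendritic against T cells, 848 to 2337 for dendritic cells against macrophages and 234 to 2054 for macrophages against T cells. Without WT replicates 3 of both dendritic cells and macrophages, a choice made after seeing the data, these were 3266 over all 4, 16 for B against T cells, 2127 for B cells against macrophages, 1781 for dendritic cells against macrophages and 2056 for macrophages against T cells.

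Sign changes among members, all uncalled, were Csf2ra in dendritic cells (0.00 in the fit of 24 libraries; -0.03 to 0.03 with a library left out), Csf3 in macrophages (0.57 with the block; -0.78 to 1.56), and, with a library left out, Csf1 in B cells (-0.07 to 0.37) and macrophages (-0.12 to 0.34), Csf2rb in dendritic cells (-0.02 to 0.21), Csf3r in macrophages (-0.14 to 0.07), and Csf2ra (-0.23 to 0.03) and Lif (-0.48 to 0.12) in T cells. The difference of KO effects between dendritic cells and macrophages ran from -0.14 to 0.31 for Csf1 and from -0.17 to 0.07 for Csf2rb.

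In B cells libraries of the same number had low positive correlations (0.034 to 0.148), and whether they were paired is not known. With the replicate block 1260 genes were called in B cells and no tested member was, with Csf2rb at 0.19 (adjusted p = 0.098). In dendritic and T cells libraries of the same number did not deviate together in every pair (correlations -0.051 to 0.081 and -0.185 to 0.044). With the replicate block 2266 genes were called in dendritic cells and 271 in T cells. In dendritic cells Osm was then at 0.30 (adjusted p = 0.054) and Csf3r at -1.85 (adjusted p = 0.0019). Counts limit Csf2, Csf3 outside macrophages, Csf1r in lymphocytes and Osmr outside macrophages, where no difference was detectable at this depth.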
